A study of Mus musculus with 12 samples.

Results

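Brain pericytes are recognised by a small set of marker genes, and the set described here holds Pdgfrb, Rgs5, Kcnj8, Abcc9, Cspg4, Anpep, Vtn, Higd1b, and Ndufa4l2. These 9 genes were chosen by name as markers of the cell type, and each symbol matched 1 gene among the 54119 genes counted. All 9 also passed the filter on low counts that left 19150 genes for testing. RNA came from cerebral vessels isolated from the forebrain of wild type C57BL6 mice of 8 to 12 weeks that received PBS, or LPS at 10 mg/kg intraperitoneally for 15 min, 30 min, or 4 h. LPS (lipopolysaccharide) is a bacterial cell wall component that sets off systemic inflammation. Each of the 4 groups had 3 libraries, and each library pooled 1 male and 1 female mouse, so the sexes cannot be told apart within it. When the PBS mice were killed relative to injection is not given in the sources used here.

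Pericytes sit in the capillary basement membrane, wrapped around the endothelium. In the brain they help to form and keep the blood-brain barrier and share in the control of capillary flow. Endothelial cells release PDGF-B, which recruits pericytes through the receptor PDGFRβ (Pdgfrb). The other members mark the same cell by different properties. Cspg4 encodes the NG2 proteoglycan and Anpep the ectopeptidase CD13, both on the cell surface. Kcnj8 and Abcc9 encode the pore and the regulatory subunit of the vascular ATP-sensitive potassium channel. Rgs5 encodes a brake on G protein signaling, and Vtn the secreted adhesion protein vitronectin. Higd1b and Ndufa4l2 encode small mitochondrial proteins. On GRCm38 (GENCODE M21), the annotation places Rgs5 on chromosome 1 from 169655501 to 169695813 (plus strand), Kcnj8 on chromosome 6 from 142564837 to 142571614 (minus strand), Abcc9 on chromosome 6 from 142587862 to 142702315 (minus strand), Anpep on chromosome 7 from 79821803 to 79861059 (minus strand), and Cspg4 on chromosome 9 from 56865033 to 56899870 (plus strand). It places Ndufa4l2 on chromosome 10 from 127514967 to 127517154 (plus strand), Vtn on chromosome 11 from 78499091 to 78502324 (plus strand), Higd1b on chromosome 11 from 102835849 to 102838040 (plus strand), and Pdgfrb on chromosome 18 from 61045150 to 61085061 (plus strand).

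The labelled tissue was checked against marker lists. In PBS libraries, 15 endothelial markers summed to 13425 to 13784 CPM (counts scaled to a common library total after TMM, a correction for differences in RNA composition) and the 9 pericyte genes to 3772 to 3845 CPM. Markers of other cells moved with the groups. The 10 neutrophil markers, of which 9 were tested, summed to 7.53 to 9.66 CPM in PBS and 256 to 257 CPM after 4 h of LPS. The 10 skeletal muscle markers summed to 13.5 to 18.9 CPM in PBS and 195 to 209 CPM after 30 min, and 6 choroid plexus markers to 10498 to 10938 CPM in PBS and 17637 to 18525 CPM after 4 h. Their part in the results below was not tested. These are bulk samples, so fewer pericytes and less RNA per pericyte cannot be told apart. Depth was 18309177 to 25882028 fragments per library, and a member received between 153 fragments (Anpep, after 4 h) and 67404 fragments (Rgs5).

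Of 6 members whose promoters in the RefSeq table were searched, 4 with a marked early or late difference from PBS are shown. Vtn, which was also lower after 4 h, and Rgs5 were searched but are not shown. Each is 300 bases on GRCm38.p6, from 250 bases before to 50 after an annotated start, 5′ to 3′ on the coding strand. Kcnj8 (chr6:142571565-142571864, minus strand) and Abcc9 (chr6:142702225-142702524, minus strand) are neighbours on chromosome 6, with 16247 bases between the genes. Anpep lies at chr7:79848161-79848460 (minus strand) and Cspg4 at chr9:56864854-56865153 (plus strand). Capitals mark matches, on either strand, to the E-box (CANNTG), the GC box (GGGCGG), AP-1 (TGANTCA), the hypoxia response core (ACGTG), the TATA box (TATAAA), and the NF-kB and CArG motifs.
Kcnj8: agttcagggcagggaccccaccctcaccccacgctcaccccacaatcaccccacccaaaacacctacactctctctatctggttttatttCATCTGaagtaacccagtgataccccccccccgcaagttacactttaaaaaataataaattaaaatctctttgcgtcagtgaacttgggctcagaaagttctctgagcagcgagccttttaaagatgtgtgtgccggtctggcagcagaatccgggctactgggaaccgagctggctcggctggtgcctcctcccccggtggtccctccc
Abcc9: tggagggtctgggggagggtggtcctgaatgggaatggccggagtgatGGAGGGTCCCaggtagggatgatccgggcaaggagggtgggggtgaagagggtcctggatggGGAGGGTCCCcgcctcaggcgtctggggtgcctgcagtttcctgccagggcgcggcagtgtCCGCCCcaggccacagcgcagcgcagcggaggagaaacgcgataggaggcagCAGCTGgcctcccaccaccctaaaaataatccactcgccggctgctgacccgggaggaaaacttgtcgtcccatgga
Anpep: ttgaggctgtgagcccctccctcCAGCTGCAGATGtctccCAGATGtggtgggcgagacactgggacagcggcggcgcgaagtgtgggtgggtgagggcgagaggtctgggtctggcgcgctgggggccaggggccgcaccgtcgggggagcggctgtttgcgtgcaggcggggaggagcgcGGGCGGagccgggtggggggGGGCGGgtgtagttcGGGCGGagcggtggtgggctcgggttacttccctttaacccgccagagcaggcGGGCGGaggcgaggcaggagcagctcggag
Cspg4: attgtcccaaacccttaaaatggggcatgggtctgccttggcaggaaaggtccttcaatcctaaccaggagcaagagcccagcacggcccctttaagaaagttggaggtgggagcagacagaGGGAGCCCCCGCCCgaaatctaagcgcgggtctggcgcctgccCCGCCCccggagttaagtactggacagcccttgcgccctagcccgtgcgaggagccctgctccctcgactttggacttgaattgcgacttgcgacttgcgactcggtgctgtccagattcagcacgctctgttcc

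The neighbours Kcnj8 and Abcc9 differed in these letters. The Kcnj8 window held 1 E-box and no other match, whereas the Abcc9 window held 2 NF-kB matches, 1 GC box, and 1 E-box. Anpep had 4 GC boxes and 3 E-boxes, and Cspg4 had 2 GC boxes and 1 NF-kB match that overlaps the first of them. None of the 4 windows held an AP-1, hypoxia response core, TATA box, or CArG match. Of the windows searched but not shown, that of Vtn held 2 overlapping TATA box matches and 2 E-boxes. That of Rgs5 held 1 E-box. Among all 32851 promoters of the table, 72.3% held an E-box, 35.7% a GC box, 8.46% an NF-kB match, 7.81% an AP-1 match, 19.6% a hypoxia response core, 13.6% a TATA box, and 1.63% a CArG match. A match is a description of letters, not a binding site. The Anpep window covers the start of transcripts Anpep-202 and Anpep-204, not that of Anpep-201, which begins further into the gene. The Abcc9 window is set on the start of Abcc9-201 and Abcc9-204 and stops just short of that of Abcc9-203, which held most Abcc9 fragments in PBS. The Cspg4 window covers the start of the coding transcript Cspg4-201, not that of the retained-intron transcript Cspg4-204, which held most Cspg4 fragments in PBS.

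The members differed widely in level per transcript length. In PBS, Vtn stood highest at 1446 ± 69.9 TPM (mean ± SD, n = 3), followed by Rgs5 at 841 ± 11.4 TPM, Higd1b at 221 ± 5.49 TPM, and Ndufa4l2 at 154 ± 10.5 TPM. Pdgfrb (77.7 ± 0.464 TPM) and Anpep (71.2 ± 5.97 TPM) overlapped. Cspg4 (54.1 ± 1.85 TPM), Kcnj8 (25.6 ± 1.64 TPM), and Abcc9 (14.4 ± 0.154 TPM) came last, without overlap. With all transcripts of a gene summed, the first 4 places and the last were the same in all 4 groups. These sums include retained-intron transcripts, and the order depends on them. The coding transcript Cspg4-201 alone held 8.00 ± 0.296 TPM in PBS, below Abcc9. After 4 h the coding transcript Vtn-201 held 336 ± 4.73 TPM, below Rgs5-201 at 470 ± 9.50 TPM. Kcnj8 overlapped Cspg4 after 15 min of LPS (41.4 ± 1.48 and 38.4 ± 2.32 TPM) and after 30 min (29.6 ± 0.626 and 30.5 ± 2.02 TPM). After 4 h Anpep, at 12.01 ± 1.78 TPM, overlapped Kcnj8 at 13.9 ± 1.16 TPM. TPM values add to a constant in each library, so they were used to order genes within a group and not to compare groups.

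**Figure D1:**
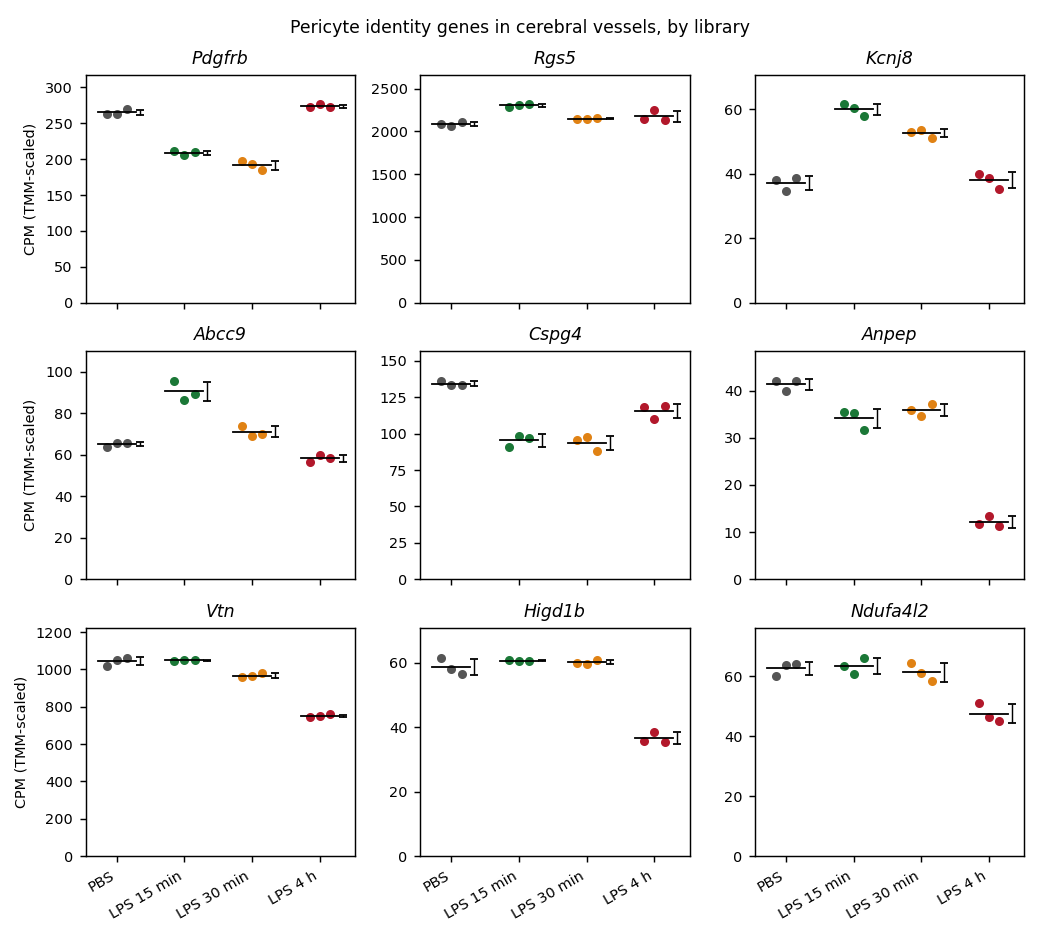
Level of each pericyte identity gene in all 12 libraries, in CPM after TMM scaling (vertical axis from 0; each panel has its own scale), by group. Points are libraries, lines are group means and bars the SD (n = 3). Anpep measured 41.96, 39.9, and 42.03 CPM in PBS and 11.8, 13.5, and 11.2 CPM after 4 h of LPS, whereas the group means of Rgs5 ran only from 2089 to 2305 CPM.

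Anpep and Higd1b were the members past a 1.5-fold test against PBS, and both were lower after 4 h. A pair of tests was applied to each gene in 1 edgeR fit with Benjamini-Hochberg adjustment over 19150 genes. The first asked for more than a 1.5-fold difference (0.58 in log2 units) and sets the calls here, and the second asked for any difference. After 15 and 30 min, 0 of 9 members passed the 1.5-fold test, beside 4.25% and 4.62% of all genes. After 4 h 2 of 9 passed, Anpep and Higd1b, both lower than in PBS, beside 33.0% of all genes. Counts of 0 and 2 among 9 genes lie near these shares. The median log2 fold change of the 9 members was 0.021, -0.030, and -0.22 at the 3 times. Regardless of sign, the median size of the change was 0.28, 0.13, and 0.22 for the members and 0.22, 0.22, and 0.59 for all genes.

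Small differences were detectable, and libraries of a group lay close together. The test for any change passed 6 of 9 members after 15 min, 6 of 9 after 30 min, and 7 of 9 after 4 h, beside 38.6%, 36.9%, and 68.5% of all genes. Libraries of the LPS and PBS groups did not overlap for 6, 7, and 8 of the 9 members, beside 49.3%, 46.7%, and 70.9% of all genes. Between LPS times, 0 of 9 passed the 1.5-fold test from 15 to 30 min (4.76% of all genes) and 2 of 9 from 30 min to 4 h (28.9% of all genes), again Anpep and Higd1b. The test for any change passed 5 of 9 and 8 of 9 there, beside 37.4% and 65.3%. With 3 libraries against 3, an exact permutation test of a single gene cannot go below p = 0.1, so all p values come from the fit across genes. The 3 comparisons with PBS share the PBS libraries.

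Scaling mattered after 4 h. With library size alone in place of TMM, the median of all genes shifted to -0.71, and 9 of 9 members were then called lower, from Rgs5 at -0.64 to Anpep at -2.46. Of all genes called against PBS, 60.8% after 30 min and 18.2% after 4 h were higher in that scaling, in place of 82.4% and 57.96%. Between LPS times the shares were 37.1% and 21.7%, in place of 58.2% and 58.8%. Changes are therefore given relative to the bulk of genes.

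**Figure D2:**
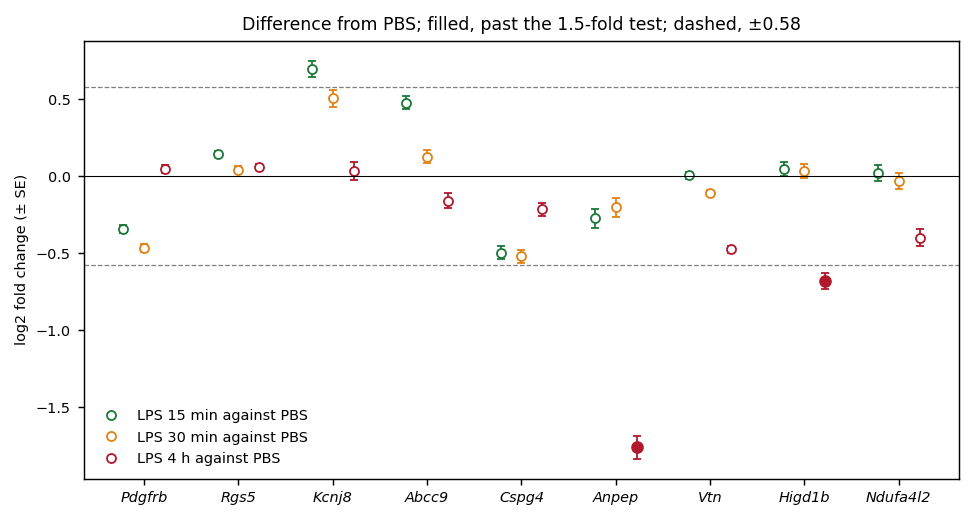
Log2 fold change against PBS (vertical axis) for the 9 members at each LPS time; bars are SE of the fit across 12 libraries, filled points passed the 1.5-fold test, and dashed lines stand at 0.58 and -0.58. Only Anpep (-1.76) and Higd1b (-0.68) after 4 h are filled, and Kcnj8 after 15 min (0.70) lies above the upper line without passing.

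The pair of ATP-sensitive potassium channel genes was highest after 15 min. This channel opens when cellular ATP is low and hyperpolarises mural cells, which lowers vascular tone. Kcnj8, the Kir6.1 pore, measured 37.9, 34.6, and 38.6 CPM in the PBS libraries, 61.5, 60.3, and 57.97 CPM 15 min after LPS, 52.9, 53.5, and 51.1 CPM after 30 min, and 39.9, 38.7, and 35.1 CPM after 4 h. All 6 early LPS libraries lay above all PBS libraries, and the 4 h libraries overlapped PBS. After 15 min Kcnj8 differed 1.62-fold (log2 fold change 0.70 ± 0.053, SE), which passed the edgeR test for any change (adjusted p = 3.24e-10) but not the 1.5-fold test (adjusted p = 0.0998). After 30 min the value was 0.51 ± 0.054 (adjusted p for any change 9.06e-08) and after 4 h 0.034 ± 0.059 (0.628).

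Abcc9, the SUR2 regulatory subunit, measured 63.9, 65.5, and 65.8 CPM in the PBS libraries, 95.5, 86.4, and 89.5 CPM 15 min after LPS, 74.1, 68.9, and 70.1 CPM after 30 min, and 56.4, 59.9, and 58.5 CPM after 4 h. It was above PBS without overlap at both early times and below PBS without overlap after 4 h. Its log2 fold changes were 0.48 ± 0.043, 0.13 ± 0.044, and -0.16 ± 0.048, with adjusted p for any change of 6.03e-09, 0.029, and 0.00539. From 15 to 30 min Abcc9 differed by -0.35 (adjusted p for any change 8.60e-07) and Kcnj8 by -0.19 (0.00569). In PBS, transcript Abcc9-203 held 97.4% ± 2.29 of the Abcc9 fragments. An antisense gene overlaps Abcc9, and the library kit does not mark strand, so fragments of both in shared sequence cannot be told apart.

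The other genes of this channel family, which serve pancreatic and neuronal channels, were scarcer. Of the 2 tested, Abcc8 (SUR1) rose after 15 min, from 8.87 ± 0.858 CPM to 21.9 ± 1.26 CPM (log2 fold change 1.30 ± 0.11, adjusted p = 9.53e-06), and passed at no other time against PBS. Beside it, 4.25% of all genes passed after 15 min in either direction. Kcnj11 (Kir6.2) measured 3.40 ± 0.349 and 4.90 ± 0.537 CPM, a difference of 0.53 ± 0.18 that did not pass the 1.5-fold test. The 8 neuronal markers summed to 431 to 447 CPM in PBS and 580.0 to 601 CPM after 15 min, and their part in the Abcc8 value was not tested.

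Pdgfrb was lower at both early times and near its PBS level after 4 h. It measured 263, 263, and 269.7 CPM in the PBS libraries, 212, 206, and 209 CPM 15 min after LPS, 197, 193, and 185 CPM after 30 min, and 272, 276, and 273 CPM after 4 h. No early LPS library reached the lowest PBS library, and every 4 h library lay just above the highest. Its log2 fold changes were -0.34 ± 0.027 and -0.47 ± 0.027 at the early times (adjusted p for any change 5.96e-10 and 2.61e-12), inside the 1.5-fold limit, and 0.047 ± 0.028 after 4 h (0.132). From 30 min to 4 h the difference was 0.52 ± 0.028 (adjusted p for any change 1.34e-13), and -0.024 with library size alone. The 12 markers of perivascular fibroblasts, which also make Pdgfrb, summed to 1649.5 to 1733 CPM in PBS and 1345 to 1399 CPM after 15 min. Their sum was 1624 to 1649.6 CPM after 30 min and 2579.5 to 2619 CPM after 4 h. The higher sum after 4 h does not describe the list as a whole. At that time 6 of the 12 genes fell and 1 rose past the 1.5-fold test (median -0.58). The 15 smooth muscle markers summed to 4306 to 4335 CPM in PBS and 2984 to 3041 CPM after 15 min. They summed to 4039 to 4092 CPM after 30 min and 3875 to 3966 CPM after 4 h. The part of either cell type in the values of Pdgfrb and of the other members was not tested.

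Among genes of the PDGF family, Pdgfa rose and Pdgfb fell after 4 h. Of 5 genes tested (Pdgfa, Pdgfb, Pdgfc, Pdgfd, and Pdgfra), 0 passed against PBS at the early times. Beside them, 4.25% and 4.62% of all genes passed after 15 and 30 min. After 4 h 1 rose and 1 fell, beside 33.0% of all genes in either direction. Pdgfb, whose product from endothelium is the ligand that pericytes follow, fell from 368 ± 12.3 CPM to 191 ± 1.51 CPM (log2 fold change -0.95 ± 0.030, adjusted p = 1.89e-11). Pdgfa, a ligand mainly of PDGFRα, rose from 78.8 ± 1.54 CPM to 313 ± 7.18 CPM (1.99 ± 0.033, adjusted p = 9.05e-22). Pdgfc was higher after 4 h than after 30 min (14.3 ± 0.459 against 8.01 ± 0.151 CPM, 0.83 ± 0.14, adjusted p = 0.0362). Endothelial markers summed to 9502 to 9584 CPM after 4 h, below their PBS range.

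Cspg4 was also lower at both early times. It measured 136, 134, and 133 CPM in the PBS libraries, 90.4, 98.2, and 97.2 CPM 15 min after LPS, 95.4, 97.4, and 87.8 CPM after 30 min, and 118, 110.1, and 119 CPM after 4 h. All LPS libraries lay below all PBS libraries. Against PBS the log2 fold changes were -0.50 ± 0.041, -0.52 ± 0.042, and -0.22 ± 0.043, with adjusted p for any change of 1.35e-09, 7.03e-10, and 1.04e-04. NG2 also marks oligodendrocyte precursors, whose 8 other markers summed to 69.6 to 71.8 CPM in PBS, 67.9 to 73.3 CPM after 15 min, 71.1 to 77.6 CPM after 30 min, and 58.3 to 67.3 CPM after 4 h.

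The transcripts of Cspg4 were divided differently after 4 h. The annotated coding transcript, Cspg4-201, held 30.7% ± 1.77 (SD, n = 3) of the fragments of the gene in PBS, 29.1% ± 3.10 after 15 min, 29.9% ± 0.589 after 30 min, and 40.2% ± 1.23 after 4 h. Most other fragments went to Cspg4-204, an annotated retained-intron transcript at the 3′ end of the gene, with 64.7% ± 1.28 in PBS and 56.1% ± 1.03 after 4 h. The lowest 4 h share of Cspg4-201 (38.8%) lay above the highest share in any other library (32.2%). When only protein-coding transcripts of every gene were counted, Cspg4 after 4 h differed from PBS by 0.19 ± 0.061 in place of -0.22, and the difference between 4 h and 30 min, 0.76 ± 0.063, passed the 1.5-fold test (adjusted p = 0.00494, edgeR). At the early times the coding-only values were -0.55 ± 0.060 and -0.57 ± 0.061. The direction after 4 h thus depends on which transcripts are counted, and the split itself is an estimate by the quantifier.

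**Figure D3:**
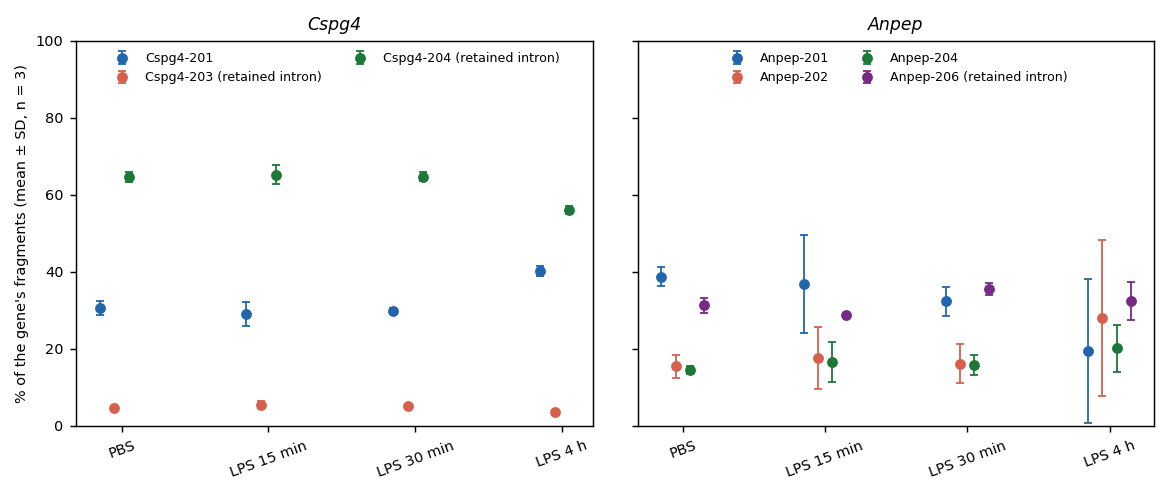
Share of the fragments of Cspg4 (left) and Anpep (right) assigned to each transcript, in percent (vertical axis), by group; points are means and bars the SD (n = 3). Cspg4-201 stood at 30.7% in PBS and 40.2% after 4 h, whereas the Anpep shares after 4 h carry wide bars, such as 19.4% ± 18.7 for Anpep-201.

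Anpep showed the largest change of the 9 members. It measured 41.96, 39.9, and 42.03 CPM in the PBS libraries, 35.4, 35.2, and 31.7 CPM 15 min after LPS, 35.9, 34.6, and 37.1 CPM after 30 min, and 11.8, 13.5, and 11.2 CPM after 4 h. The 4 h libraries lay far below all others, and the early libraries below all PBS libraries. After 4 h Anpep fell 3.39-fold (log2 fold change -1.76 ± 0.075, adjusted p = 2.70e-13 in the 1.5-fold test of edgeR), and against 30 min the difference was -1.56 ± 0.077 (adjusted p = 1.50e-11). At the early times the values were -0.28 ± 0.060 and -0.20 ± 0.061 (adjusted p for any change 8.03e-04 and 0.011), and 30 min differed from 15 min by 0.073 ± 0.062 (0.391). The 4 h call held in each alternative listed under processing. Anpep stood at percentile 3.85 of the log2 fold changes of all genes after 4 h.

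Coding transcripts of Anpep together held 68.7% ± 1.80 of its fragments in PBS, 71.2% ± 0.376 after 15 min, 64.3% ± 1.46 after 30 min, and 67.5% ± 4.96 after 4 h, with nearly all other fragments on retained-intron transcripts. All 3 libraries at 30 min (at most 65.2%) lay below the PBS libraries (at least 67.2%), whereas the 4 h libraries overlapped them. After 4 h the coding-only log2 fold change was -1.77 ± 0.087 (adjusted p = 9.88e-10, edgeR). Division among the coding transcripts was unsteady at the low 4 h counts, where Anpep-201 took between 0% and 37.4% of the fragments of a library. Another annotated gene, Gm44974, overlaps Anpep on the same strand, and its part in the Anpep fragments was not tested. CD13 serves as a surface handle for sorting brain pericytes, and the values here are for its RNA only. Among 4 other surface peptidases, Dpp4 fell after 4 h, from 13.5 ± 0.794 to 5.82 ± 0.619 CPM (-1.22 ± 0.12, adjusted p = 1.34e-05), and Enpep, Mme, and Ace passed at no time against PBS. That is 1 of 4 after 4 h, beside 33.0% of all genes in either direction. Enpep (aminopeptidase A), also a pericyte marker, measured 43.5 ± 2.48 CPM in PBS and 35.6 ± 1.69 CPM after 4 h.

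Higd1b overlapped its PBS level within 30 min and fell by 4 h. It measured 61.7, 58.2, and 56.7 CPM in the PBS libraries, 60.9, 60.7, and 60.6 CPM 15 min after LPS, 59.99, 59.7, and 60.9 CPM after 30 min, and 35.8, 38.7, and 35.4 CPM after 4 h. Early libraries overlapped PBS and the 4 h libraries stood apart. Against PBS the differences were 0.045 ± 0.045, 0.033 ± 0.045, and -0.68 ± 0.050, the last a 1.60-fold fall (adjusted p = 0.0248 in the 1.5-fold test of edgeR). This call is near the limit: it was lost without PBS replicate 1 (adjusted p = 0.0909), LPS 4 h replicate 1 (0.0721), or LPS 4 h replicate 3 (0.0935), and DESeq2 with the same fold limit gave 0.333. Against 30 min the value was -0.71 ± 0.051 (adjusted p = 0.00735), a call that held without any 1 library but not in DESeq2 (0.205).

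Ndufa4l2, a relative of the respiratory chain subunit NDUFA4 that is known as a target of hypoxia-inducible factor, measured 60.2, 63.8, and 64.1 CPM in the PBS libraries, 63.5, 60.96, and 66.3 CPM 15 min after LPS, 64.5, 61.2, and 58.4 CPM after 30 min, and 51.03, 46.6, and 45.01 CPM after 4 h. Early libraries overlapped PBS and the 4 h libraries were lower. Its log2 fold changes were 0.021 ± 0.050, -0.030 ± 0.051, and -0.40 ± 0.055, the last past the test for any change (adjusted p = 9.51e-07, edgeR) but not the 1.5-fold test. Shmt2 overlaps it on the other strand.

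Of 7 relatives and regulators of these mitochondrial genes that were tested (Higd1a, Higd2a, Ndufa4, Cox4i1, Cox4i2, Hif1a, and Epas1), 0 passed at the early times and 1 rose after 4 h. Among all genes 4.25%, 4.62%, and 33.0% passed at the 3 times in either direction. The gene that rose was Hif1a, the oxygen-regulated transcription factor subunit, from 74.4 ± 2.06 to 733 ± 16.96 CPM (3.30 ± 0.030, adjusted p = 5.18e-28). Epas1, the related HIF-2 subunit, measured 2287 ± 47.6 CPM in PBS and 2040.2 ± 30.5 CPM after 4 h. The tissue values do not say which cells held these RNAs.

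Vtn, after Rgs5 the most abundant member in CPM, was lower after 4 h. It measured 1021, 1049, and 1063 CPM in the PBS libraries, 1045, 1049, and 1049 CPM 15 min after LPS, 957, 963, and 981 CPM after 30 min, and 745, 748, and 758 CPM after 4 h. Libraries at 15 min lay inside the PBS range, those at 30 min below it and those at 4 h lower still. Against PBS the differences were 0.0047 ± 0.021, -0.11 ± 0.021, and -0.48 ± 0.021, with adjusted p for any change of 0.89, 2.02e-04, and 2.38e-15, and none passed the 1.5-fold test. Its coding transcript Vtn-201 held 85.4% ± 1.33 of the fragments in PBS and 83.2% ± 1.10 after 4 h.

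Several partners of vitronectin rose after 4 h, when 33.0% of all genes passed in either direction. Plaur, the urokinase receptor that binds vitronectin, went from 7.24 ± 0.904 CPM in PBS to 32.1 ± 1.14, 149 ± 4.23, and 776 ± 2.44 CPM at the 3 times, with log2 fold changes of 2.15, 4.37, and 6.75 (adjusted p = 4.79e-16, 2.16e-25, and 3.03e-30). The integrin genes Itgav (1.24 ± 0.049), Itgb3 (1.78 ± 0.11), and Itgb8 (1.05 ± 0.062) rose after 4 h, with adjusted p of 2.82e-12, 1.43e-10, and 8.24e-08, although the calls of Itgav and Itgb8 were lost with library size alone. Itgb3 fell after 15 min (-1.09 ± 0.12, adjusted p = 0.00147). Itgb1, Itgb5, and Itgb6 did not pass.

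Rgs5, the most abundant member in CPM, held a narrow range. It measured 2090.5, 2064, and 2112 CPM in the PBS libraries, 2286, 2310.4, and 2318 CPM 15 min after LPS, 2147, 2147, and 2159.9 CPM after 30 min, and 2146, 2252, and 2139 CPM after 4 h. Every LPS library lay above every PBS library, by small margins. Against PBS the differences were 0.14 ± 0.020, 0.043 ± 0.020, and 0.061 ± 0.020 (adjusted p for any change 4.60e-06, 0.103, and 0.00993), the widest of them 1.10-fold. With library size alone the 4 h value was -0.64.

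Rgs5 belongs to the R4 class of RGS proteins, of which 7 other genes were tested. Of these, 0 passed after 15 min, 1 rose after 30 min, and 3 rose after 4 h, beside 4.25%, 4.62%, and 33.0% of all genes in either direction. Rgs16 went from 12.4 ± 1.36 CPM in PBS to 139 ± 5.18 CPM after 30 min (3.50 ± 0.049, adjusted p = 2.09e-23) and 817 ± 10.5 CPM after 4 h (6.05 ± 0.048, adjusted p = 1.73e-29). Rgs1, a leukocyte gene, rose from 0.110 to 2.72 CPM (4.57 ± 0.62, adjusted p = 2.96e-06) after 4 h. Its PBS level lay near 0, and the log2 fold change was 5.52 without PBS replicate 1. After 4 h neutrophil markers were also high, and their part in the Rgs1 result was not tested. Rgs2 rose from 9.11 ± 0.426 to 15.5 ± 0.922 CPM (0.76 ± 0.10, adjusted p = 0.0344), a call lost, among other settings, with library size alone, in DESeq2 (adjusted p = 0.311), and without PBS replicate 1 (0.0942), PBS replicate 2 (0.0605), LPS 4 h replicate 2 (0.0606), or LPS 4 h replicate 3 (0.1).

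A longer list of 25 other pericyte genes split in both directions after 4 h. After 15 min 1 rose and 2 fell, after 30 min 0 rose and 1 fell, and after 4 h 6 rose and 8 fell, with medians of -0.13, -0.16, and -0.16. Of all genes, 4.25%, 4.62%, and 33.0% passed at these times in either direction. The largest rises after 4 h were those of Pla1a, a phospholipase (from 11.9 to 54.5 CPM, 2.19 ± 0.077), Gja4, the gap junction protein connexin 37 (from 109 to 268 CPM, 1.30 ± 0.036), the transcription factor Foxs1 (from 16.1 to 37.2 CPM, 1.21 ± 0.092), and S1pr3, a sphingosine-1-phosphate receptor (from 61.02 to 128 CPM, 1.07 ± 0.048). The largest falls were those of Slc19a1, a folate carrier (from 70.5 to 23.2 CPM, -1.60 ± 0.054), the parathyroid hormone receptor Pth1r (from 54.5 to 20.3 CPM, -1.41 ± 0.070), the matrix protein Ecm2 (from 88.5 to 45.1 CPM, -0.97 ± 0.059), and P2ry14, a receptor for UDP-sugars (from 32.8 to 17.3 CPM, -0.92 ± 0.070). Adjusted p in edgeR ranged from 1.29e-15 (Pla1a) to 3.15e-05 (P2ry14). Foxs1 had fallen at the early times, to 5.79 ± 0.865 CPM (-1.47 ± 0.10, adjusted p = 1.44e-07) and 8.28 ± 0.599 CPM (-0.95 ± 0.10, adjusted p = 0.00366). Gja4 is also an arterial endothelial gene. The calls of Gja4, Foxs1, and S1pr3 were lost with library size alone.

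**Figure D4:**
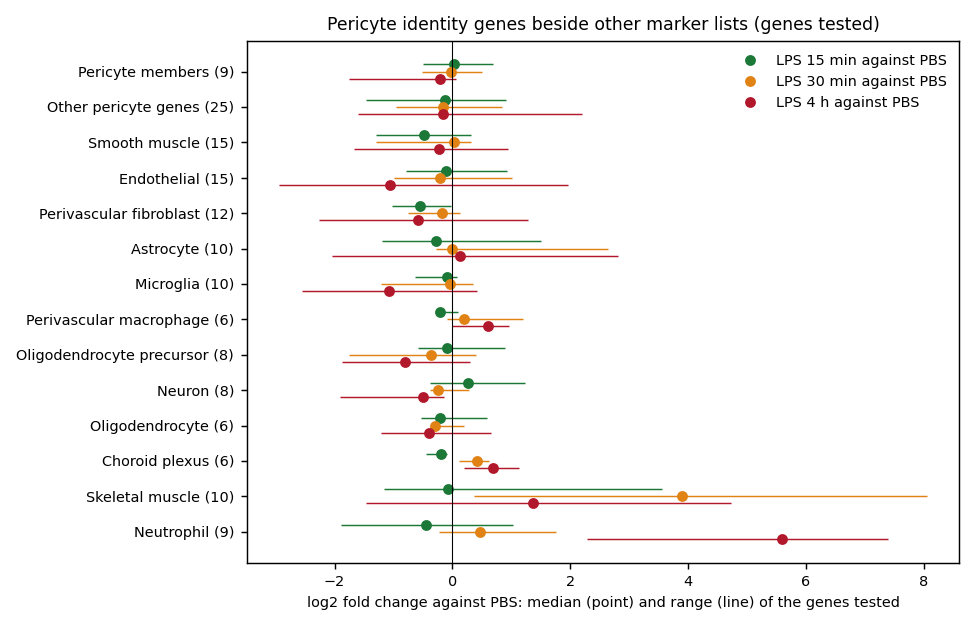
Log2 fold change against PBS (horizontal axis) of marker lists for cell types of isolated vessels; points are medians and lines the range over genes tested (numbers in parentheses) at each LPS time. The pericyte identity genes span -1.76 to 0.061 after 4 h, whereas neutrophil markers have a median of 5.60.

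Other cells of the vessel are given beside these genes, and differences between lists were not tested. Of all genes, 4.25%, 4.62%, and 33.0% passed at the 3 times in either direction. Of 15 smooth muscle genes, 5 fell and 0 rose after 15 min (median -0.49), 1 fell after 30 min (0.027), and 2 rose and 4 fell after 4 h (-0.23). Of 15 endothelial genes, 2 rose and 2 fell at each early time and 3 rose and 9 fell after 4 h, with a median of -1.05. Of 12 perivascular fibroblast genes, 3 fell after 15 min, 1 after 30 min, and 6 after 4 h, when 1 rose (median -0.58). After 4 h, 3 of 10 astrocyte genes rose and 3 fell (0.13), 5 of 10 microglial genes fell (-1.08), 3 of 6 perivascular macrophage genes rose (0.60), 3 of 8 neuronal genes fell (-0.50), 2 of 6 oligodendrocyte genes fell (-0.40), and 3 of 8 precursor genes fell (-0.81). Of liver genes 2 of 7 could be tested and 1 fell, and of intestinal genes 4 of 6 could be tested and 2 fell. The summed level of the 9 members was 3950.1 to 3979.7 CPM after 15 min, 3679 to 3692 CPM after 30 min, and 3474 to 3584 CPM after 4 h, and most of it came from Rgs5 and Vtn.

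For the 2 members that passed, the genes with the most similar course were sought among 10893 genes with a mean of at least 10 CPM, by the root mean square difference in log2 CPM over 12 libraries. Closest to Anpep were Als2cl (difference 0.102), Stmn1 (0.105), and Cyb561a3 (0.112), with log2 fold changes after 4 h of -1.83, -1.61, and -1.69. Closest to Higd1b were Ptdss2 (0.0439), Rmnd5a (0.0486), and Sptan1 (0.0512), with -0.74, -0.64, and -0.75. None of these 6 is among the pericyte genes listed, which are few beside the genes compared, so nothing is read from this.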

How the data were processed

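Cerebral vessel RNA of 12 mouse libraries was made with a SMART-Seq v4 kit, which does not mark strand. The authors ran Salmon 1.2.1, per their processing notes, on GRCm38.p6, and deposited estimated counts, the fragments assigned to each transcript, without normalization, along with TPM scaled by the authors for length and library. The gene table of the authors holds a normalized signal, counts scaled with DESeq2. All per-library columns were used.

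Transcripts were joined to GENCODE M21 (139852 of 140948; the rest held 0.482% to 0.85% of fragments), and estimated counts were summed to genes and rounded. In edgeR 4.0.16 under R 4.3.3, filterByExpr (minimum count 10, total 15, share 0.7) kept 19150 genes, TMM factors were applied, and 1 quasi-likelihood fit over 12 libraries was tested with glmTreat at 0.58 and, for any change, with glmQLFTest. Calls were made at an adjusted p below 0.05. Each SE came from the estimate and the F statistic of glmQLFTest. On simulated counts over 19150 genes with 200 changed, 99% to 100% of these were recovered in the 3 comparisons with PBS. This recovery is not given by size of change. It therefore does not say how often changes near 0.58, such as those of Kcnj8 after 15 min and Higd1b after 4 h, would be found. P values rest on the spread between libraries, each made from a pool of mice. Between libraries of a group this spread was 2.21 to 2.80 times counting variance in the median gene. Whether the libraries of a group were prepared together is not given in the sources used here. Depth was 18309177 to 25882028 fragments.

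The 9 genes and all lists were chosen with earlier results of these data known. Genes were named by a rule: the 9 members, genes of 6 context lists past the threshold, the 4 largest rises and falls among other pericyte genes after 4 h, and the 3 genes most similar to each member past the threshold. Other context genes were named after their values were seen, and 1 gene that the rule names is not reported here. Deviations from the group means correlated between -0.0489 and 0.0679 in the 18 pairs of libraries that carry equal replicate numbers, so these do not pair the samples. Alternatives were no fold limit, an added limit of 1.5, library size only, RLE factors, all genes unfiltered, a transcript length offset, a replicate block, only the groups compared, leaving out each library, limma 3.58.1 on the gene table with pseudocounts of 1 or 10, and DESeq2 1.42.0. Counting only protein-coding transcripts was added after seeing the data.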

Additional observations from a re-analysis of the deposited data

Results flagged for a closer look

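A pair of members differed between LPS times in a direct test of those times. Anpep was lower after 4 h than after 30 min by a log2 fold change of -1.56 (adjusted p = 1.50e-11, edgeR), with all 3 libraries at 4 h below all 3 at 30 min. Higd1b was lower by -0.71 (adjusted p = 0.00735), again in 3 of 3 libraries. No group had enough libraries for a test of single outlying libraries.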

How the results depend on the processing

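Of the recomputed counts of members past the threshold, 70 stayed within 1.5 times the reported count and 20 did not. With no fold limit the counts were 6, 6, and 7 members against PBS at the 3 times, 5 from 15 to 30 min, and 8 from 30 min to 4 h. With library size only they were 1 after 30 min, 9 after 4 h, and 6 from 30 min to 4 h, and this scaling moved the median of all genes to -0.17, -0.71, and -0.58. An added limit of 1.5, both limma fits, and DESeq2 left 1 (Anpep) in each of the 2 comparisons with called members, and the transcript length offset left 1 after 4 h. Leaving out 1 library gave 1 to 2 after 4 h against PBS. The fit with a replicate block gave 2 members in each of these 2 comparisons and 0 in the others.

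Of the recomputed log2 fold changes of members, 726 kept their direction and side of the threshold, 38 were newly past it, 12 were no longer past it, and 34 changed sign. With library size only the sign changed for Vtn (-0.020) and Ndufa4l2 (-0.0031) after 15 min, Rgs5 (-0.12), Abcc9 (-0.039), and Higd1b (-0.13) after 30 min, Pdgfrb (-0.66), Rgs5 (-0.64), and Kcnj8 (-0.67) after 4 h, Anpep (-0.068) from 15 to 30 min, and Pdgfrb (-0.024), Rgs5 (-0.52), and Cspg4 (-0.23) from 30 min to 4 h. The near-zero Vtn value after 15 min also changed sign with RLE factors (-0.015), the transcript length offset (-0.033), limma (-0.048 and -0.048), DESeq2 (-0.015), and leaving out 1 library (-0.011 to 0.018). Ndufa4l2 changed sign with the offset after 30 min (0.00014) and on leaving out 1 library after 15 min (-0.0087 to 0.050) and 30 min (-0.067 to 0.0065). With no filter the sign changed for Pdgfrb (-0.0031) and Kcnj8 (-0.017) after 4 h and Rgs5 (-0.027) from 30 min to 4 h. Kcnj8 after 4 h did so in the fit of the 2 groups (-0.0017), in limma (-0.00052 and -0.00050), and on leaving out 1 library (-0.019 to 0.087), and so did Cspg4 from 15 to 30 min (-0.063 to 0.018) and Rgs5 from 30 min to 4 h (-0.0071 to 0.030). With protein-coding transcripts only it changed for Cspg4 after 4 h (0.19) and Anpep from 15 to 30 min (-0.10). Of the transcript shares, 51 moved by more than 1 SD and 253 did not. The cause of these differences was not tested. Few fragments, as for Anpep after 4 h, limit the transcript shares.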
